A study of Homo sapiens with 12 samples.

Results

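The mature miRNAs of the miR-28, miR-151a and miR-708 hairpins were followed in small RNA sequencing libraries of 2 pancreatic ductal adenocarcinoma (PDAC) cell lines. The members were the rows named hsa-mir-28-5p, hsa-mir-28-3p, hsa-mir-151a-5p, hsa-mir-151a-3p, hsa-mir-708-5p and hsa-mir-708-3p, which are 6 of the 1733 miRNAs counted in at least 1 library. All 6 had at least 1 read in each of the 12 libraries. The study depleted MYEOV, a gene first described as overexpressed in myeloma, with transfected siRNAs and sequenced 3 control and 3 MYEOV-knockdown libraries of AsPC-1 and the same numbers of PANC-1. AsPC-1 is a line from the ascites of a PDAC patient and was grown in RPMI medium, and PANC-1 is a line from a primary pancreatic tumor and was grown in DMEM, so the line and its medium cannot be told apart. The labels describe the controls as WT cells without treatment, whereas the methods describe a transfected negative control siRNA, and the protocol text of the labels gives RNA preparation 48 hours after siRNA transfection, a time that differs from the one in the methods. MYEOV is not a miRNA and was not counted in these libraries, so the depletion itself could not be checked here. Each line is a single cell line, and the labels name no separate cultures, so a p-value measures the spread between these libraries, which may be technical.

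A miRNA hairpin is cut by Drosha and Dicer into a duplex of a 5p and a 3p arm, and usually one arm is loaded into Argonaute and kept while the other is degraded. A loaded miRNA finds its targets mainly through its seed, the bases near its 5′ end. MiR-28, miR-151a and miR-708 are grouped as one family of related hairpins, and each lies in an intron of a protein-coding gene, miR-28 in LPP, which encodes a focal adhesion protein, miR-151a in PTK2, which encodes focal adhesion kinase, and miR-708 in TENM4, which encodes a teneurin. MiR-28-5p and miR-708-5p carry the same seed, while the 3p arms have other seeds. MiR-151a is known for its ties to PTK2 in cell migration.

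Mature sequences of 3 of the 6 members were taken from the RefSeq table used here (GRCh38), and these are shown to make the shared and the shifted seeds visible. That of miR-28-5p is not among them, so the seed it shares with miR-708-5p is not shown. Bases 2 to 8, the seed, are in capitals, and every sequence runs 5′ to 3′. MiR-3139, a miRNA of another hairpin, is shown as the 1 other entry of the 2370 mature entries with the seed of miR-708-5p.
hsa-miR-708-5p: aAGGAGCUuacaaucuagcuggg
hsa-miR-3139: uAGGAGCUcaacagaugccuguu
hsa-miR-28-3p: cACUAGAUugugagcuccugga
hsa-miR-708-3p: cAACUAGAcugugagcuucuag
MiR-28-3p and miR-708-3p matched at 2 of 22 positions when both were read from their 5′ ends. When miR-708-3p was shifted by 1 base, they matched at 17 of 21 positions. Their seeds therefore held nearly the same letters, displaced by 1 base, and no other mature entry of the table had either seed.

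In GRCh37, the assembly that hg19 names and to which the reads were mapped, the miR-28 hairpin lies on chromosome 3 from 188406569 to 188406654 on the plus strand. It lay in an intron, and never in an exon, of the 8 LPP transcripts that span it. The miR-708 hairpin lies on chromosome 11 from 79113066 to 79113153 on the minus strand, in an intron of the 3 TENM4 transcripts that span it. Both hairpins have the strand of their host gene.

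The libraries held 3805084 to 7311783 reads counted on miRNAs, with all AsPC-1 libraries above all PANC-1 libraries. No pair of replicates agreed within sampling noise, since the chi-square statistic over miRNAs was 9.73 to 290 times its degrees of freedom, and every library was counted as its own replicate. The knockdown libraries are labelled si-MYEOV with a number, and the labels do not say whether it marks a replicate or one of the siRNAs, so the spread between knockdown libraries may include a difference between siRNAs. AsPC-1 control 1 stood apart. Its pairs with the other AsPC-1 controls gave 290 and 238, whereas all other pairs of replicates gave 9.73 to 72.0. Values without this library are given beside the differences that rest on it most, while the correlations at the end include it. Levels are normalized CPM, read counts relative to the library size, scaled with TMM factors, and a log2 fold change (LFC) is called when its adjusted p is under 0.05.

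The family took 1.03% to 1.19% of all counted reads in AsPC-1, compared with 1.43% to 1.78% in PANC-1. Most of these reads were miR-151a-3p, which made up 79.5% to 83.1% of the family in AsPC-1, compared with 82.9% to 86.9% in PANC-1. Among all miRNAs of a library, miR-151a-3p ranked 21 to 26 by count in AsPC-1, compared with 11 to 14 in PANC-1. MiR-28-3p came next in all libraries, at rank 58 to 66 in AsPC-1, compared with 62 to 68 in PANC-1. The order of the members was the same in both lines from there down, with miR-151a-5p and miR-28-5p close together, then miR-708-5p and last miR-708-3p. The exception was in the middle, where miR-151a-5p exceeded miR-28-5p in 10 of the 12 libraries and fell below it in the PANC-1 knockdown libraries 1 and 3. The ratio of miR-28-5p to miR-151a-5p reads was 0.775 to 1.04, so these neighbours differed by less than the gaps above and below them. These comparisons between different miRNAs are of reads, each of which covers a whole mature miRNA, and how well each sequence was captured in the library was not measured.

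**Figure D1:**
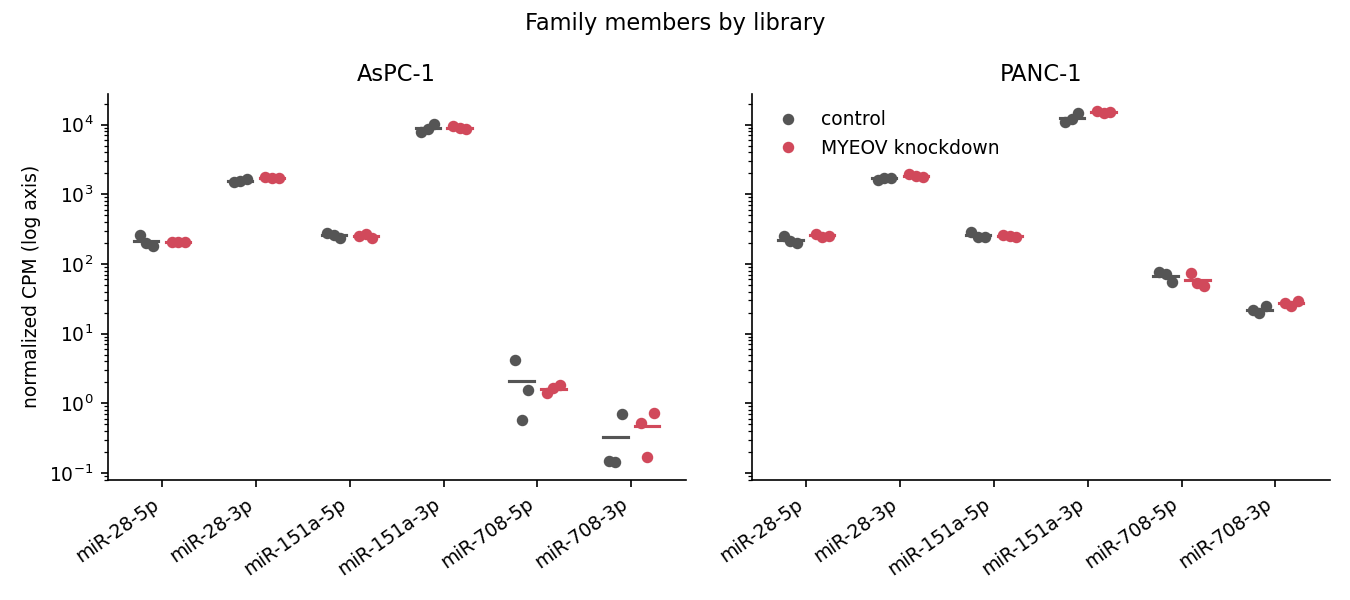
Normalized CPM (log axis) of the 6 members in every library of AsPC-1 (left) and PANC-1 (right), with controls in grey, MYEOV-knockdown libraries in red and a short line at each group mean; each line was scaled on its own. The 4 arms of miR-28 and miR-151a lie between 182 and 15605 CPM in both panels together, whereas miR-708 arms lie between 0.142 and 4.14 CPM in AsPC-1 and between 19.5 and 76.8 CPM in PANC-1.

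Among the members, the lines differed most in miR-708. The AsPC-1 controls had 28, 4 and 11 reads of miR-708-5p, and the PANC-1 controls, from smaller libraries, had 349, 378 and 212. The AsPC-1 controls had 1, 1 and 5 reads of miR-708-3p, and the PANC-1 controls had 99, 104 and 95. The groups did not come near each other for either arm, and the knockdown libraries repeated the split, with 8 to 10 reads of miR-708-5p in AsPC-1, compared with 205 to 280 in PANC-1. Such a split was common between the control lines. Of the 627 miRNAs tested, 82.1% had groups that did not overlap and 82.8% were called. An absolute LFC at least as large was found for 169 of them for miR-708-5p and 144 for miR-708-3p, the arm itself included. On the CPM scale shared by the controls, miR-708-5p stood at 2.37 ± 2.14 (SD, n = 3) in AsPC-1, compared with 63.1 ± 10.3 in PANC-1, an LFC of -4.75 (SE 0.34, adjusted p = 5.34e-09, edgeR quasi-likelihood test). This was 27.0-fold higher in PANC-1, with a 95% interval of 16.3 to 44.7. That interval does not cover the choice of processing, and across the alternatives to this fit the LFC ran from -5.09 to -3.84. The estimate rests in part on AsPC-1 control 1, which held 28 of the 43 AsPC-1 reads, and without this library the LFC was -5.69 (adjusted p = 3.67e-14). MiR-708-3p gave an LFC of -5.68 (SE 0.36, adjusted p = 1.21e-09, edgeR), and -6.01 to -4.78 across the alternatives. In this comparison both arms passed the filter on low counts only through PANC-1, the line in which they are high, so they had to differ and their calls add nothing to the reads themselves. With only 7 reads in all AsPC-1 controls against 298 in PANC-1, its ratio by pooled reads was 53.9, and counting error alone gave a 95% interval (exact) of 25.8 to 135. AsPC-1 control 3 held 5 of these 7 reads, and without it the LFC was -6.72. In these bulk libraries, few cells with much miR-708 and many cells with little cannot be told apart.

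The differences of the miR-28 and miR-151a arms between the lines depended in size and direction on the scaling, and with TMM factors they were small. MiR-151a-5p, the less abundant arm of its hairpin, was 289 ± 28.9 CPM in AsPC-1, compared with 240 ± 19.5 CPM in PANC-1 controls (SD, n = 3), an LFC of 0.27 (SE 0.11, adjusted p = 0.0356, edgeR) with overlapping groups. This call was lost when AsPC-1 control 1 or 2 or PANC-1 control 2 or 3 was left out (adjusted p = 0.0517 to 0.0940, edgeR). The 3 other differences did not pass. MiR-151a-3p was 10003 ± 1159 CPM in AsPC-1, compared with 11747 ± 1973 CPM in PANC-1, with an LFC of -0.23 (95% interval -0.50 to 0.03, adjusted p = 0.0954, edgeR). This LFC was -0.05 without PANC-1 control 3 and -0.13 without AsPC-1 control 1, and without PANC-1 control 1 it was called, at -0.29 (adjusted p = 0.0196, edgeR). MiR-28-5p had an LFC of 0.21 (95% interval -0.08 to 0.51) and miR-28-3p of 0.16 (95% interval -0.04 to 0.35). Without AsPC-1 control 1, miR-28-5p was at 0.08, and miR-28-3p was called at 0.21 (adjusted p = 0.0388, edgeR). MiR-28-5p was called without AsPC-1 control 3 (LFC 0.38, adjusted p = 0.0214, edgeR) or without PANC-1 control 1 (LFC 0.34, adjusted p = 0.0140, edgeR). Of the 4 arms of miR-28 and miR-151a, 1 was called between the lines, against 82.8% of the 627 miRNAs tested, and 1, miR-28-3p, had groups that did not overlap, against 82.1% of all. The median LFC of all tested miRNAs was -0.27 and the median absolute LFC was 1.49, and both depend on the scaling. When scaled to total counts, with a median over all miRNAs of -0.60, miR-28-5p, miR-28-3p and miR-151a-5p turned negative, at -0.12, -0.18 and -0.07. MiR-151a-3p, already negative, moved to -0.57. With upper-quartile factors, which moved that median to 0.65, all 4 were called as higher in AsPC-1, with miR-28-5p at 1.13, miR-28-3p at 1.08, miR-151a-5p at 1.19 and miR-151a-3p at 0.69.

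**Figure D2:**
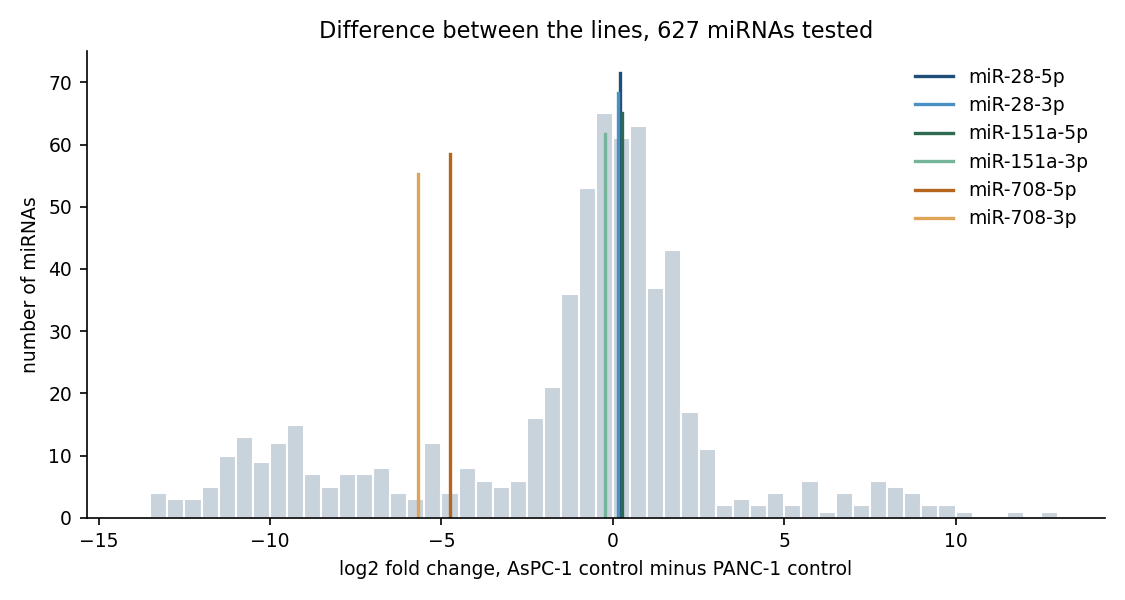
Histogram of the LFC between AsPC-1 and PANC-1 controls (x axis, AsPC-1 minus PANC-1; y axis, number of miRNAs) over the 627 miRNAs tested, with a colored line at each family member. The 4 arms of miR-28 and miR-151a lie between -0.23 and 0.27 and the miR-708 arms at -4.75 and -5.68; the heights of the colored lines carry no value.

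The seed shared by miR-28-5p and miR-708-5p was thus read from differently composed pools in the 2 lines. The reads of both arms together numbered 1144 to 1771 in AsPC-1, and miR-708-5p made up 0.279% to 1.58% of them. In PANC-1 they numbered 991 to 1514, and miR-708-5p made up 16.0% to 24.97%. The widest 95% Wilson intervals of these shares reached 2.28% in AsPC-1 and began at 14.1% in PANC-1, so the ranges were apart in all 12 libraries. Within PANC-1 the share was 23.2%, 24.97% and 21.4% in the controls and 21.1%, 18.2% and 16.0% in the knockdown libraries. The knockdown libraries were all below the controls in this share, which was not given a test of its own. The margin was narrow, since the 95% Wilson intervals were 19.0% to 23.4% in knockdown library 1 and 19.0% to 24.1% in control 3. For each of the 2 miRNAs alone the groups overlapped. Among single miRNAs, 36.7% of the 551 tested had groups that did not overlap in this comparison, and such shares were not counted over all miRNAs. MiR-3139, which has the same seed, added at most 6 reads to any library.

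**Figure D3:**
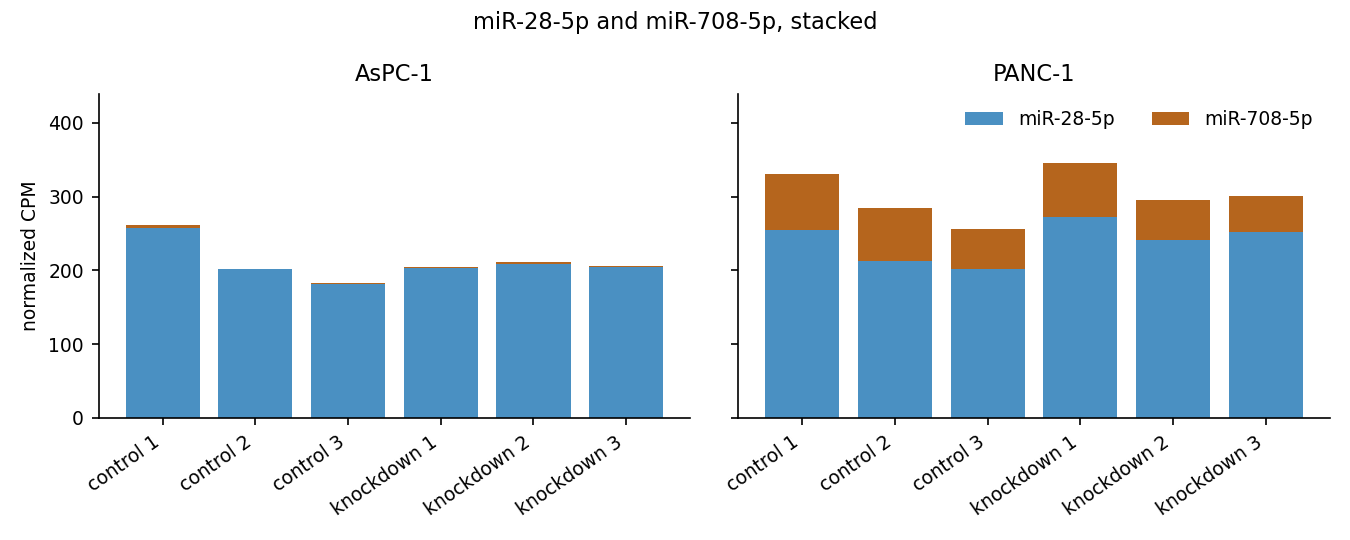
Stacked bars of miR-28-5p (blue) and miR-708-5p (brown) in normalized CPM for each library of AsPC-1 (left) and PANC-1 (right). The brown part is 0.566 to 4.14 CPM in AsPC-1, compared with 48.0 to 76.8 CPM in PANC-1, on top of 182 to 273 CPM of miR-28-5p.

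The hairpins differed in which arm was recovered. For miR-28 the 3p arm outnumbered the 5p arm 5.74-fold to 9.05-fold in AsPC-1, compared with 6.37-fold to 8.49-fold in PANC-1. For miR-151a the 3p arm was ahead by 28.2-fold to 43.2-fold in AsPC-1, compared with 38.6-fold to 61.5-fold in PANC-1. MiR-708 went the other way, and in the PANC-1 controls its 5p arm outnumbered its 3p arm 3.53-fold, 3.63-fold and 2.23-fold. The 5p share of miR-708 in these libraries was 77.9%, 78.4% and 69.1%. In AsPC-1 the 5p arm of miR-708 was also the larger in all 6 libraries, but with 4 to 28 reads of it the 95% Wilson intervals of the 5p share ran from 37.6% to 99.4% across libraries, and its size was not measurable at this depth. Among the hairpins with a mean of at least 10 reads on both arms in a line's controls, 54 of 125 had more 3p than 5p reads in AsPC-1, compared with 75 of 152 in PANC-1. Of these, 13 hairpins leaned further to the 3p arm than miR-151a in AsPC-1, compared with 16 in PANC-1, and 25 and 37 leaned further than miR-28.

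Between the lines, the arm ratios of the control libraries were called for 0 of the 3 hairpins, against 33.1% of the 160 hairpins tested by limma, and their groups overlapped, whereas 51.9% of hairpins had groups that did not. MiR-708 passed the read minimum only through PANC-1, and its difference of 0.69 had a 95% interval of -1.12 to 2.51, so that nothing can be read from it. The log2 ratio of 5p to 3p reads of miR-28 was -2.88 ± 0.33 (SD, n = 3) in AsPC-1, compared with -2.92 ± 0.22 in PANC-1, a difference of 0.05 (95% interval -0.39 to 0.48), and without AsPC-1 control 1 it was -0.13. For miR-151a it was -5.11 ± 0.31 in AsPC-1, compared with -5.60 ± 0.33 in PANC-1, a difference of 0.49 (95% interval 0.01 to 0.97, adjusted p = 0.109, limma; two-sided exact permutation p = 0.2, of which the smallest possible is 0.1), and 0.34 without AsPC-1 control 1. The 5p share of miR-151a was 3.43%, 2.86% and 2.26% in the AsPC-1 controls and 2.53%, 2.005% and 1.62% in the PANC-1 controls. In both lines the library numbered 1 had the highest 5p share of miR-28 and of miR-151a and the library numbered 3 the lowest. Same-numbered controls differed by 0.45, 0.53 and 0.49 in the log2 ratio of miR-151a. With a replicate block this difference was called (adjusted p = 0.00411, limma), but the numbers were not taken as pairs. AsPC-1 control 1 had the highest 5p share of all 3 hairpins, by 0.36, 0.29 and 1.95 over its group mean on the log2 scale for miR-28, miR-151a and miR-708. The median deviation of this library over 159 hairpins was 0.01. Its part in the results was measured only by leaving it out.

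**Figure D4:**
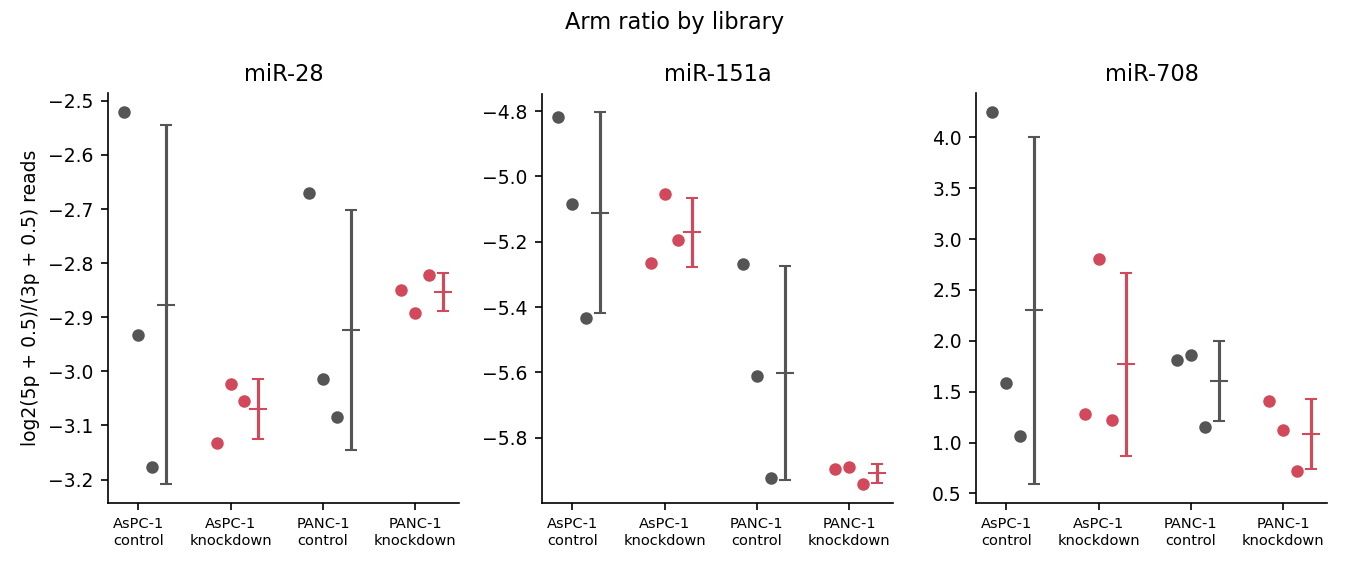
Log2 ratio of 5p to 3p reads (y axis, own range in each panel) of miR-28, miR-151a and miR-708 in each of the 12 libraries by group, with the group mean and SD beside the points. Values below 0 mean more 3p reads: miR-28 and miR-151a stay below 0 in all 12 libraries and miR-708 above 0, where the AsPC-1 points rest on 1 to 28 reads an arm.

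The knockdown of MYEOV was compared with control in each line to ask whether depletion changes these miRNAs. In AsPC-1, 0 of the 5 members tested were called, against 11.4% of 498 miRNAs, and 0 of them had an unadjusted p under 0.05, as 24.7% of all did. DESeq2's Wald test also called 0. MiR-708-3p was not tested because its AsPC-1 counts, 1 to 5, did not pass the filter on low counts. MiR-28-3p, the main arm of its hairpin, was 1479, 1543 and 1645 CPM in the controls and 1779, 1703 and 1704 CPM in the knockdown libraries. All its knockdown values lay above all control values, which made it 1 of the 5 members with groups that did not overlap, against 30.5% of all miRNAs tested. Its LFC of 0.15 (SE 0.08, 95% interval -0.01 to 0.32) had an adjusted p of 0.243 (edgeR). MiR-151a-3p was 8872 ± 1174 CPM in the controls and 9020 ± 426 CPM in the knockdown libraries (SD, n = 3), an LFC of 0.02 (95% interval -0.18 to 0.22). The 5p arms had LFCs of -0.06 for miR-28-5p (95% interval -0.30 to 0.19) and -0.03 for miR-151a-5p (95% interval -0.23 to 0.17). MiR-708-5p, at 4.14, 0.57 and 1.54 CPM in the controls and 1.38, 1.67 and 1.81 CPM in the knockdown libraries, gave an LFC of -0.34 with a 95% interval of -1.52 to 0.84, so that a change was not detectable at this depth. Without AsPC-1 control 1 that LFC was 0.62, and those of miR-28-5p, miR-151a-5p and miR-151a-3p also changed sign, to 0.11, 0.04 and -0.05, with 0 members called.

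In PANC-1, 1 of the 6 members was called, against 22.0% of 551 miRNAs, and 3 had an unadjusted p under 0.05, as 35.8% of all did. The called member was miR-151a-3p, the most abundant one, which rose. It was 10935, 11900 and 14844 CPM in the controls and 15605, 14765 and 15173 CPM in the knockdown libraries. Control 3 reached the range of the knockdown libraries, so the groups overlapped, while the other 2 controls were lower. The LFC was 0.27 (SE 0.10, adjusted p = 0.0388, edgeR), or 1.21-fold with a 95% interval of 1.06 to 1.38. This call was fragile. It was lost with DESeq2 size factors, upper-quartile factors, all 12 libraries in one fit, and total counts as the scale, where the LFC was 0.14 (adjusted p = 0.287, edgeR). It was also lost when any 1 library other than control 3 was left out (LFC 0.17 to 0.29), whereas without control 3 the LFC was 0.40 (adjusted p = 0.00119, edgeR).

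The other PANC-1 members did not pass the threshold. MiR-708-3p was 21.8, 19.5 and 24.6 CPM in the controls and 27.3, 24.7 and 29.1 CPM in the knockdown libraries, and its LFC was 0.31 (SE 0.15, adjusted p = 0.134, edgeR). MiR-28-3p was 1620, 1724 and 1711 CPM in the controls and 1967, 1797 and 1785 CPM in the knockdown libraries, with an LFC of 0.13 (SE 0.08, adjusted p = 0.243, edgeR), or 0.08 without knockdown library 1. These 2 of the 6 members had groups that did not overlap, against 36.7% of all miRNAs tested. MiR-28-5p was 254, 213 and 202 CPM in the controls and 273, 242 and 252 CPM in the knockdown libraries, and its LFC of 0.20 (adjusted p = 0.132, edgeR) became 0.29 (adjusted p = 0.0162) without control 1 and 0.11 (adjusted p = 0.482) without control 3. MiR-708-5p went in the other direction from its partner arm, at 76.8, 71.0 and 54.8 CPM in the controls and 72.9, 53.9 and 48.0 CPM in the knockdown libraries. Its LFC was -0.22 (SE 0.14, adjusted p = 0.241, edgeR), and leaving out 1 library gave -0.42 to -0.10. It was called only without control 3, at -0.36 (adjusted p = 0.0378, edgeR), and without knockdown library 3 it was -0.10 (adjusted p = 0.730). MiR-151a-5p was nearly level, at 257 ± 22.9 CPM in the controls and 253 ± 8.17 CPM in the knockdown libraries (SD, n = 3), an LFC of -0.03 (95% interval -0.21 to 0.16).

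**Figure D5:**
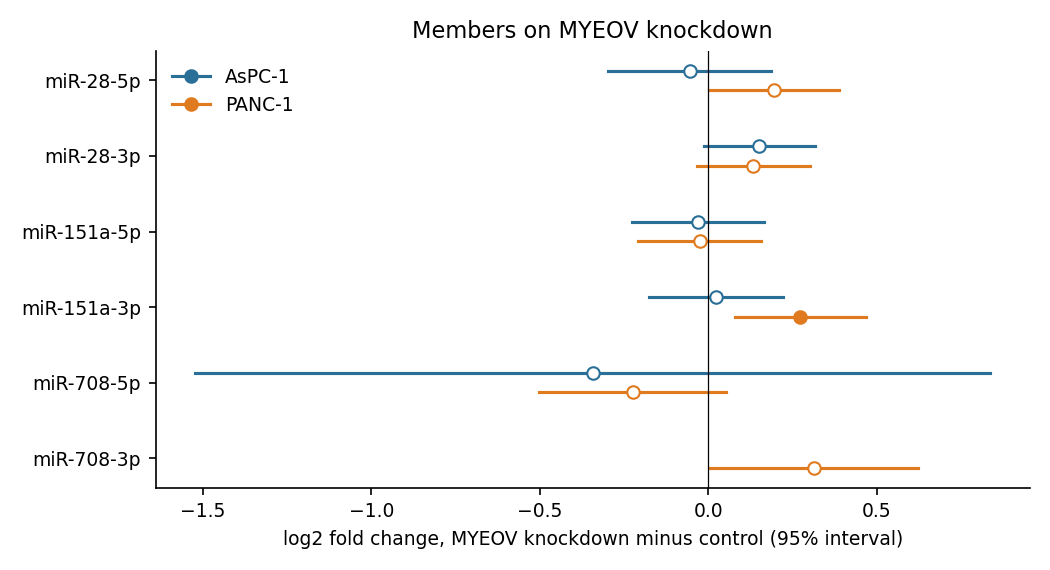
LFC of each member on MYEOV knockdown (x axis, knockdown minus control) with its 95% interval from edgeR, in AsPC-1 (blue) and PANC-1 (orange); a filled point has an adjusted p under 0.05. The 1 filled point is miR-151a-3p in PANC-1 at 0.27, the AsPC-1 interval of miR-708-5p is the widest, from -1.52 to 0.84, and miR-708-3p has no AsPC-1 point because it was not tested there.

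The difference between the lines in the response to knockdown was tested by an interaction term over all 12 libraries. It called 0 of the 6 members, against 0.308% of 650 miRNAs, with 2 members at an unadjusted p under 0.05, as were 11.4% of the 650 miRNAs. For the miR-708 arms this count says little, since they have few reads in AsPC-1 and their 95% intervals ran from -1.23 to 0.79 for miR-708-5p and from -1.07 to 1.16 for miR-708-3p. The 2 members at an unadjusted p under 0.05 were miR-151a-3p and miR-28-5p. For miR-151a-3p the LFC in AsPC-1 minus that in PANC-1 was -0.35 (95% interval -0.65 to -0.05, adjusted p = 0.330, edgeR). For miR-28-5p it was also -0.35 (95% interval -0.70 to -0.01, adjusted p = 0.425, edgeR), and -0.18 without AsPC-1 control 1. DESeq2's Wald test called 0 members as well. Without AsPC-1 control 1 the difference for miR-151a-3p was -0.42 and was called (adjusted p = 0.0308, edgeR), as were 25 of 665 miRNAs. A response of miR-151a-3p that differs between the lines was therefore not shown with all libraries.

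The ratio of the arms needs no scaling between libraries, since both arms are counted in the same one. In AsPC-1, 0 of the 2 hairpins tested were called by limma, against 12.8% of 125 hairpins, and both had overlapping groups, whereas 30.4% of hairpins did not overlap. The log2 ratio of 5p to 3p reads of miR-28 went from -2.88 ± 0.33 in the controls to -3.07 ± 0.06 in the knockdown libraries (SD, n = 3), a difference of -0.19 (95% interval -0.54 to 0.15), and without AsPC-1 control 1 it was -0.02. For miR-151a the difference was -0.06 (95% interval -0.40 to 0.28), and 0.09 without that library. In PANC-1, 1 of 3 hairpins was called, against 20.0% of 150 hairpins. This was miR-708, whose 5p share was 77.9%, 78.4% and 69.1% in the controls and 72.7%, 68.6% and 62.3% in the knockdown libraries. The knockdown library 1 lay above control 3, so the groups overlapped, as they did for the 2 other hairpins, against 28.7% of hairpins without overlap. The log2 ratio fell from 1.61 ± 0.39 to 1.08 ± 0.35, a difference of -0.52 (SE 0.18, adjusted p = 0.0273, limma with a trended prior). Its two-sided exact permutation p was 0.2, with 0.1 the smallest that 3 libraries against 3 allow. The call depended on the prior, since with an untrended prior the adjusted p was 0.243 and 0 of the 150 hairpins were called. It was also lost without PANC-1 control 1 or 2 or knockdown library 2 or 3, with differences of -0.34 to -0.54. For miR-151a the ratio was -5.60 ± 0.33 in the controls and -5.91 ± 0.03 in the knockdown libraries, a difference of -0.31 (95% interval -0.58 to -0.03, adjusted p = 0.106, limma), which was -0.47 (adjusted p = 0.0249) without control 3 and -0.14 (adjusted p = 0.494) without control 1. Its two-sided exact permutation p was 0.3. In the PANC-1 fit the trended prior nearly replaced each hairpin's own spread. The limma intervals and p-values there thus reflect a spread shared over hairpins, not that of the hairpin alone. For miR-28 the difference was 0.07 (95% interval -0.20 to 0.34).

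MiR-151b is nearly identical to miR-151a-5p and can share reads with it, so both values are uncertain to that extent. It had 38 to 53 reads in the AsPC-1 libraries and 17 to 33 in the PANC-1 libraries, a small part of the 944 to 1874 reads of miR-151a-5p. It was not called on knockdown in either line. Its LFC was 0.26 in AsPC-1 (adjusted p = 0.493, edgeR) and 0.30 in PANC-1 (adjusted p = 0.434, edgeR). Between the control lines its LFC was 0.55 (adjusted p = 0.0561, edgeR), with groups that did not overlap. MiR-3139 had 1 to 6 reads in each AsPC-1 library, and in PANC-1 it had 1 read in knockdown library 3 and 0 in the others, and it was not tested.

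The miRNAs whose levels ran most like a member across the libraries were found by Pearson's r of log2 CPM centered on the mean of each line, over the 12 libraries and 401 candidate miRNAs. They describe these libraries, which share their depth, scaling and AsPC-1 control 1, and carry no p. For miR-28-5p they were miR-16-5p (r = 0.936), miR-642a-5p (0.920) and miR-132-3p (0.885). For miR-28-3p they were miR-3615 (r = 0.861), miR-126-3p (0.795) and miR-576-5p (0.757). The 2 arms of miR-28 therefore had different nearest miRNAs, and their r with each other was 0.269. For miR-151a-5p they were miR-200a-3p (r = 0.954), miR-374b-5p (0.943) and miR-374a-5p (0.935). For miR-151a-3p they were miR-7706 (r = 0.942), miR-548f-3p (0.916) and miR-3158-3p (0.894), and its r with miR-151a-5p was -0.088. For miR-708-5p they were miR-197-3p (r = 0.863), miR-628-5p (0.847) and miR-16-5p (0.840). For miR-708-3p they were miR-143-3p (r = 0.807), miR-361-3p (0.673) and miR-576-3p (0.632). Like arms of miR-28 and miR-151a ran closer than the arms of either hairpin, with r = 0.819 for miR-28-5p and miR-151a-5p and 0.743 for miR-28-3p and miR-151a-3p, whereas the arms of miR-708 gave -0.110. The miR-708 values rest on few reads in the AsPC-1 libraries.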

How the data were processed

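Small RNA of AsPC-1 and PANC-1 cells was sequenced in 12 libraries, 3 control and 3 MYEOV-knockdown libraries per line, assigned by their labels. Per the methods and labels, reads of 50 nt were trimmed, mapped to hg19 with Bowtie (its version is not given in the sources used here) and kept at 18 to 28 nt, and the authors deposited a raw count of reads per mature miRNA. The count takes the most abundant sequence within 3 nt of the annotated 5′ end and others that start at the same base, which leaves out isoforms that start elsewhere. A miRNA not listed in a library was given 0. Libraries held 3805084 to 7311783 reads, and the floor of 3 reads equals 0.410 to 0.788 CPM. Intervals on reads cover counting error only.

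From these counts, each comparison was fitted over all miRNAs with edgeR 4.0.16 in R 4.3.3 (filterByExpr with a minimum count of 10, TMM factors, quasi-likelihood F test, Benjamini-Hochberg adjustment, threshold 0.05), without a replicate block. Arm ratios, log2 of 5p over 3p reads with 0.5 added to each, were fitted with limma 3.58.1 with a trended prior over hairpins with a mean of at least 10 reads on both arms. The fits were also run on simulated counts with a constant dispersion and no outlying library. That setting differs from these libraries, so the run does not bear on the fragile calls. The named miRNAs were, by rule, the 6 members, miR-151b, miRNAs with a member's seed, and for each member the 3 miRNAs with the highest r. The members and lists were chosen with earlier results of these data known. Alternatives were DESeq2 1.42.0 (its size factors and its Wald test), total-count and upper-quartile scaling, other filters, a pseudocount of 1, an untrended prior, a joint fit of the 12 libraries, a replicate block, and leaving out each library. Added after seeing the data was miR-151b summed with miR-151a-5p. Same-numbered libraries did not deviate together in every pair (r = -0.155 to 0.248, and 0.083 to 0.248 between the control lines), so their numbers were not taken as pairs.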

Additional observations from a re-analysis of the deposited data

How the results depend on the processing

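With upper-quartile factors 6 members were called between the lines, with all 12 libraries in one fit 5, and with at least 10 counts in every library 0, against 3. In the last, the miR-708 arms were not tested and miR-151a-5p was not called (LFC 0.23, adjusted p = 0.0595, edgeR). In PANC-1, 0 members were called on knockdown with DESeq2 size factors, total counts, upper-quartile factors and all 12 libraries in one fit, and for the arm ratio 0 hairpins with means of at least 100 reads and with the untrended prior. The replicate block called 6 members between the lines, 2 hairpins in PANC-1 and 1 hairpin (miR-151a, adjusted p = 0.00411, limma) between the lines, and changed no other count of members or hairpins called. Over all features, it lowered the calls in AsPC-1 from 57 to 29 miRNAs and from 16 to 1 hairpins. All libraries in one fit lowered those in PANC-1 from 121 to 67, at least 10 counts in every library those between the lines from 519 to 303 and means of at least 100 reads those of hairpins from 53 to 27. The interaction had 4 with upper-quartile factors and 10 with no filter, against 2. Of the calls in PANC-1, 70 of 121 were higher in knockdown, 26 of 143 with total counts and 65 of 94 with upper-quartile factors. Of those between the lines, 226 of 519 were higher in AsPC-1 and 345 of 545 with upper-quartile factors. Leaving out 1 library gave 2 to 5 members between the lines, 0 to 2 in PANC-1, 0 to 1 for the interaction, and 0 to 2 hairpins in PANC-1. Over all miRNAs the calls in AsPC-1 were 102 without control 1, and 24 and 31 without knockdown libraries 1 and 3, and those in PANC-1 were 68 and 55 without knockdown libraries 2 and 3. The cause was not tested, beyond the miR-708 arms left out by a filter.

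Signs turned as follows. On AsPC-1 knockdown miR-151a-3p was -0.075 with all libraries in one fit. On PANC-1 knockdown miR-28-3p was -0.0072 with total counts and miR-151a-5p 0.022 with upper-quartile factors. Between control lines total counts gave -0.12 (miR-28-5p), -0.18 (miR-28-3p) and -0.072 (miR-151a-5p), and upper-quartile factors 0.69 (miR-151a-3p). For the interaction miR-28-3p was 0.084 with DESeq2 size factors and with its Wald test and 0.15 with total counts, miR-151a-5p 0.061, 0.062 and 0.13, and miR-708-5p 0.0096 with total counts. Leaving out 1 library gave, in AsPC-1, -0.15 to 0.11 (miR-28-5p), -0.080 to 0.040 (miR-151a-5p), -0.052 to 0.14 (miR-151a-3p) and -0.80 to 0.62 (miR-708-5p), in PANC-1 -0.076 to 0.036 (miR-151a-5p), for the interaction -0.14 to 0.0083 (miR-28-3p), -0.72 to 0.74 (miR-708-5p) and -0.37 to 1.15 (miR-708-3p), and for arm ratios -0.22 to 0.087 (miR-151a, AsPC-1), -0.012 to 0.20 (miR-28, PANC-1), -0.13 to 0.20 (miR-28, lines) and -0.28 to 1.31 (miR-708, lines). All other members and hairpins kept their sign under the alternatives run.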
